A study of Mus musculus with 16 samples.

Results

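The hearts described here are those of sham-operated C57.YA males, set against the 3 other groups of the same experiment. Members were the 4 sham C57.YA arrays of the 16 arrays of the series, each carrying RNA of the left ventricle of 1 mouse, and the genes of interest were those that separated these 4 hearts from the other 12. All mice were males 12 weeks old. C57BL/6J is the common laboratory strain, and C57.YA is C57BL/6J carrying the Y chromosome of the A/J strain, so all 4 groups share the C57BL/6J genome outside the Y chromosome. In each strain 4 mice were castrated (CX) and 4 were sham-operated. Surgery preceded puberty, so sham mice went through puberty with testes and CX mice without them. Expression was read on Illumina MouseRef-8 v2.0 bead arrays, and every level given is the log2 bead signal after quantile normalization, on which 1 unit is a doubling.

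A gene was called at an adjusted p under 0.1 from limma. The adjustment (Benjamini-Hochberg) covered 12764 probes, each detected on 2 or more arrays of some group. The main contrast took the mean of sham C57.YA minus the average of the 3 other group means. A second rule asked for a call in the same direction against each of the 3 groups separately, and a further rule asked for 4 values all above or all below the other 12. The 3 pairwise contrasts share the 4 sham C57.YA arrays and are not independent of each other. Since the genes named below were chosen by these contrasts, their p-values describe the choice rather than test it anew.

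Among the genes that stood out were those of the circadian clock. In mammals the clock is a loop in which ARNTL (BMAL1) and CLOCK bind E-boxes and switch on the Per and Cry genes, whose proteins then block ARNTL and CLOCK. A second loop runs through the nuclear receptors NR1D1 and NR1D2, which repress Arntl through the RORE element, and ROR proteins, which activate it. PAR-bZIP factors such as DBP and TEF carry the rhythm to output genes through D-boxes. The heart has its own clock, which follows the time of day and is also set by feeding, temperature and glucocorticoids. In mouse tissues, Arntl peaks around the end of the night, when Dbp and the Per genes are low. According to the study's methods, the mice of all groups were killed within the same morning hour. Other times of day were not sampled.

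The promoter sequences below show where those elements lie in the tested clock genes that held one. Of the 18 clock genes tested, 15 had a promoter in the RefSeq table for GRCm38.p6, which holds 250 bases before and 50 after each start, and 23 promoters were searched on both strands. The E-box was searched as CACGTG, the D-box as TTATGTAA or TTACGTAA, and the RORE by its consensus, and none of these motifs contains another. Over the 32851 promoters of the table, 7.15% held an E-box, 1.06% a D-box and 0.38% a RORE. Capitals mark the element.
Arntl, RORE, chr7:113207527-113207556, plus strand, transcribed side of a start: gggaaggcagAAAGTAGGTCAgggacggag
Ciart, E-boxes, chr3:95882237-95882374, minus strand: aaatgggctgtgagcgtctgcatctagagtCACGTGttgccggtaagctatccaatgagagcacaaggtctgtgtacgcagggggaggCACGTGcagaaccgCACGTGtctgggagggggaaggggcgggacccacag
Per3, D-boxes, chr4:151044786-151044900, minus strand: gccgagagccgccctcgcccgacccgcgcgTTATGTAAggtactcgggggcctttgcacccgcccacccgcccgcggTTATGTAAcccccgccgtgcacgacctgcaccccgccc
Tef, E-box, chr15:81802516-81802581, plus strand: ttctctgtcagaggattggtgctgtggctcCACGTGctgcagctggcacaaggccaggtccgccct
Tef, second start, E-box, chr15:81811246-81811311, plus strand: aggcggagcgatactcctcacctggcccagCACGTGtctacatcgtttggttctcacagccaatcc
Per1, E-box, chr11:69098753-69098818, plus strand: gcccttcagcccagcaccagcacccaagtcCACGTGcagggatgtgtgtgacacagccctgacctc
Thus 3 clock genes (Ciart, Per1 and Tef) held an E-box, 1 (Per3) a D-box and 1 (Arntl) a RORE. These counts are of genes, some with several promoters, whereas the shares above are of promoters. The 3 E-boxes of Ciart lay between 38 and 110 bases upstream of its start. The leading genes outside the clock, described further on, were searched as well. Of these, Coq10b, Fkbp5, Slc25a33 and Slc41a3 held an E-box, and Coq10b also a D-box. Their share was not set against that of all promoters. These matches describe the letters in the window, and no binding was measured.

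The arrays themselves detected similar numbers of probes. Detected probes numbered 11435 to 12212 per array, and 11726 to 12063 on the 4 sham C57.YA arrays. The mean signal before normalization ran from 733 to 1004 on the sham C57.YA arrays and from 815 to 1208 on the other 12. The sham C57.YA hearts fell into 2 pairs. Residuals of replicates 1 and 2 correlated with each other across probes at 0.25 and those of replicates 3 and 4 at 0.17, while the 4 correlations across the pairs ran from -0.63 to -0.54. Residuals of 1 group sum to 0, so some negative correlation arises by construction. On the first principal component (28.3% of the variance) replicates 1 and 2 scored -3.30 and -4.28 and replicates 3 and 4 scored 15.05 and 16.37. On the second component (23.3%) the 4 arrays lay together, from -14.13 to -10.44, next to sham C57BL/6J at -10.08 to -4.97. The within-group SD was over 0.5 for 79 probes in sham C57.YA, against 16 in sham C57BL/6J, 8 in CX C57.YA and 30 in CX C57BL/6J. For the clock genes and the leading genes whose call in the main contrast was lost without 1 of the pairs, the value without it is given.

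**Figure D1:**
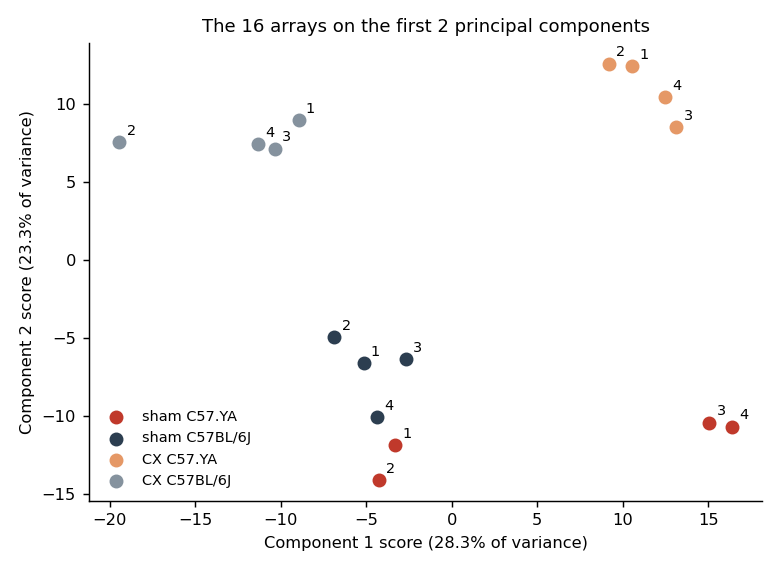
Scores of the 16 arrays on principal components 1 and 2 (axes, with percent of variance), over all tested probes; points are arrays, numbered by replicate and coloured by group. The sham C57.YA arrays share the bottom of the plot, but replicates 3 and 4 lie near 15 on component 1 and replicates 1 and 2 near -4.

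Against the average of the 3 other groups, 2073 probes (16.2% of those tested) were called, 1032 higher (8.09%) and 1041 lower (8.16%) in sham C57.YA, representing 1709 genes. The changes were mostly small, with a median fold of 1.19 and 127 probes over 1.5-fold. Higher calls made up 49.8% here, but 17.2% when arrays were scaled to a common median in place of quantile normalization. Pairwise, 548 probes (4.29%) separated sham C57.YA from sham C57BL/6J, 253 higher (1.98%) and 295 lower (2.31%). Against CX C57.YA there were 2510 (19.7%), 1291 higher (10.1%) and 1219 lower (9.55%), and against CX C57BL/6J 3422 (26.8%), 1737 higher (13.6%) and 1685 lower (13.2%). Called in all 3 in the same direction were 236 probes (1.85%), 113 higher (0.885%) and 123 lower (0.964%), for 194 genes. The 4 values lay beyond all other 12 for 315 probes (2.47%), 146 above (1.14%) and 169 below (1.32%), and 181 probes met both rules. Under median scaling the first of these rules gave 45 higher and 123 lower (26.8% higher), and the second 51 above and 154 below. In RNA of whole tissue, fewer cells of a type and less RNA per cell cannot be told apart. Of the 236 probes, 222 passed the detection filter in all 4 groups, 2 only in sham C57.YA and 8 in other groups but not in sham C57.YA. When each gene was represented by its brightest probe, 174 of 8831 genes (1.97%) differed from each of the 3 groups. Of these 174, 10 differed by over 2-fold, 53 by over 1.5-fold and 6 by less than 1.2-fold.

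The number of calls depended on which sham C57.YA pair was used. Without replicates 1 and 2, 2740 probes were called in the main contrast and 484 against each of the 3 groups, of which 189 were among the 236. Without replicates 3 and 4, the counts were 1129 and 124, with 99 of the 236. The same contrast taken for the other groups called 991 probes (7.76%) for sham C57BL/6J, 3589 (28.1%) for CX C57.YA and 2905 (22.8%) for CX C57BL/6J. The probes called against each of the others numbered 54, 650 and 280, respectively, and the differences between these counts were not tested.

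Arntl, the transcriptional activator of the clock, gave the largest positive difference. Its signals were 9.26, 9.41, 9.24 and 9.06 in the 4 sham C57.YA hearts, whereas the other 12 hearts ran from 6.64 through a median of 6.88 to 7.22. The groups did not overlap, and the lowest sham C57.YA value exceeded the highest of the others by 1.84. The difference was 2.34 ± 0.09 (SE; 5.05-fold; adjusted p = 4.05e-12). Arntl was detected on all 4 sham C57.YA arrays, but on 2 of 4 sham C57BL/6J arrays and 1 of 4 in each CX group, so the fold is taken against values near the detection limit. Clock, the partner of ARNTL, read 11.44, 11.32, 11.38 and 11.36 against 10.62 to 10.97 (median 10.80) in the other hearts. This was a narrower but still complete separation, with a difference of 0.59 ± 0.06 (1.51-fold; adjusted p = 1.45e-06). A second, much dimmer Clock probe gave 0.53 and overlapped the other hearts. It was not called against CX C57.YA (0.15, adjusted p = 0.64). Nfil3, a repressor that competes with DBP at D-boxes, was also higher in all 4 hearts, by 0.54 ± 0.08 (adjusted p = 0.00033).

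Most repressors of the loop fell. Per2 gave 9.23, 8.78, 9.36 and 9.59, compared with 10.55 to 11.12 (median 10.79) in the other 12 hearts. All 4 lay below every other heart, with a gap of 0.95 and a difference of -1.55 ± 0.11 (2.93-fold lower; adjusted p = 3.13e-08). Ciart, a repressor of ARNTL and CLOCK, read 7.55, 7.13, 7.59 and 8.28 against 8.82 to 10.11 (median 9.66). It had the largest negative difference, -1.97 ± 0.16 (3.93-fold lower; adjusted p = 1.3e-07), and the sham C57.YA hearts differed among themselves by over 1 unit. Per3 was not detected on any of the 4 sham C57.YA arrays and was detected on all 12 others. Its normalized values were 6.63 to 6.87 against 7.35 to 7.96, which put it at least 1.61-fold lower than in sham C57BL/6J, 1.43-fold lower than in CX C57.YA and 1.74-fold lower than in CX C57BL/6J (adjusted p for the main contrast, 9.78e-08). Such bounds set the 4 undetected arrays at the lowest signal among probes detected there.

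Cry2, the second Cryptochrome, was lower by 0.54 ± 0.06 (adjusted p = 4.45e-06), with values of 8.12 to 8.35 against 8.63 to 8.94. Nr1d2 (REV-ERB beta) read 11.09, 10.80, 10.88 and 11.08, below the 11.54 to 12.13 of the other hearts, a difference of -0.82 ± 0.08 (adjusted p = 2.92e-06). A second, dimmer Nr1d2 probe gave -0.58 and was not called against sham C57BL/6J (-0.34, adjusted p = 0.109). Nr1d1, the paralog of Nr1d2, did not follow. Nr1d1 was called higher in the main contrast (0.29 ± 0.08, adjusted p = 0.0215), but its 4 values lay within the range of the others and it differed from sham C57BL/6J by -0.03 only (adjusted p = 0.91). Its main call was also lost under median scaling (0.18, adjusted p = 0.2001) and without replicates 3 and 4 (0.22, adjusted p = 0.2523). Per1 was 9.19 and 9.18 in replicates 1 and 2, and 9.95 and 10.26 in replicates 3 and 4. The main difference of -0.60 ± 0.17 (adjusted p = 0.0306) became -0.14 without replicates 1 and 2 (adjusted p = 0.621) and -1.06 without replicates 3 and 4 (adjusted p = 0.000976). Rora, an activator of Arntl, was called lower by 0.30, but not without replicates 1 and 2 (-0.24, adjusted p = 0.1079) or with the other 12 arrays taken as 1 group (adjusted p = 0.1258). Bhlhe40, another E-box repressor, was not called (-0.16, adjusted p = 0.18).

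Among the output genes, Dbp gave 12.42, 11.84, 12.26 and 12.52 in sham C57.YA and 13.62 to 14.19 (median 13.97) in the others. The groups were separated by 1.10, and Dbp was 3.27-fold lower (-1.71 ± 0.10, adjusted p = 2.54e-09). Tef read 10.50, 10.44, 10.21 and 10.24 against 11.25 to 11.70 (median 11.52), also without overlap. Its difference was -1.16 ± 0.08 (2.23-fold; adjusted p = 2e-08), while a second, dimmer Tef probe gave -0.23 (adjusted p = 0.04) and did not differ from each group. Usp2, a deubiquitinase that acts on clock proteins, was lower by 0.60 ± 0.08, with its 4 values 0.05 or more below the rest. A dimmer Usp2 probe gave -0.35 and was not called against CX C57BL/6J (-0.11, adjusted p = 0.54). Another gave -0.46 and was called against each group, with overlap. Nampt, the rate-limiting enzyme of NAD salvage, was lower by 0.58 ± 0.11, and Csnk1d and Csnk1e, kinases of PER proteins, by 0.35 and 0.25. None of these last 3 was called against each of the groups by its brightest probe. A second, dimmer Nampt probe gave -0.21 and was not called in the main contrast (adjusted p = 0.34). It gave 0.12 against sham C57BL/6J (adjusted p = 0.76). Without replicates 3 and 4, Csnk1d gave -0.26 (adjusted p = 0.1046) and Csnk1e -0.22 (adjusted p = 0.1286). A second Csnk1d probe gave -0.31, was called against each group and lay below all other hearts by 0.02, while 3 further probes gave 0.08, -0.09 and 0.05 and were not called.

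Over the list of core clock genes, 3 of 11 tested members were higher and 7 lower in the main contrast, with a median of -0.54, while 8.27% and 8.96% of all tested genes were higher and lower and their median was -0.0047. Among clock output genes, 1 of 7 was higher and 6 lower, with a median of -0.58. Against each of the 3 groups, 2 and 5 core genes and 1 and 3 output genes were called higher and lower. The shares of all tested genes under this rule were 0.883% higher and 1.09% lower. The mean log2 signal of the 7 output genes ran from 10.88 to 11.03 over the sham C57.YA hearts and from 11.47 to 11.59 over the other 12. The means of the other 3 groups spanned 0.15 for Arntl and Per2, 0.26 for Dbp and 0.62 for Ciart.

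**Figure D2:**
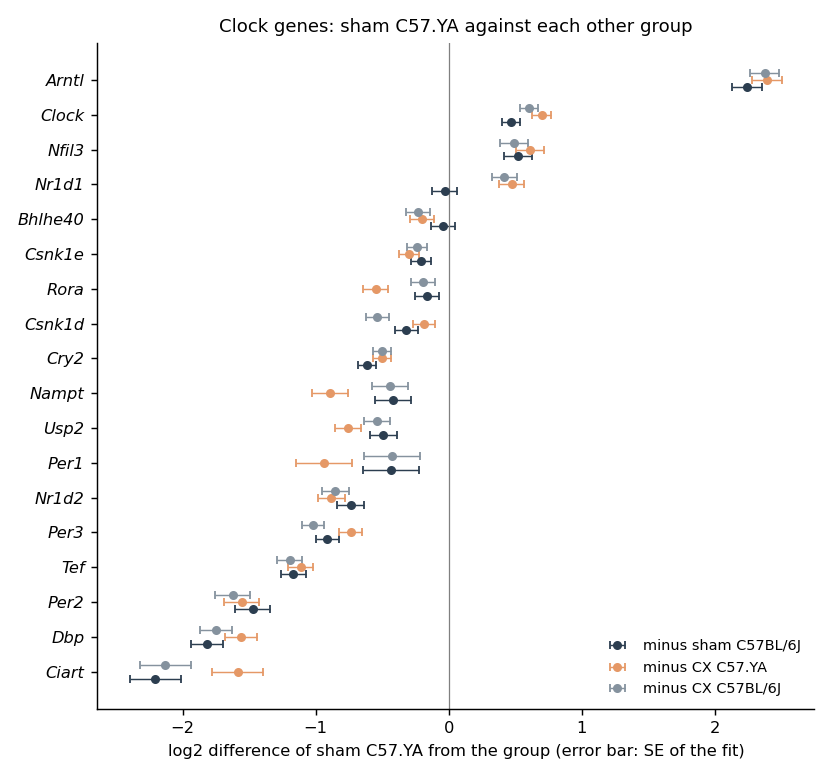
Log2 difference of sham C57.YA from each other group (horizontal axis; error bars are the SE of the fit) for the 18 tested clock genes, ordered by the main contrast. For Arntl, Tef, Per2 and Dbp the 3 differences lie together, while Nr1d1, Rora, Nampt and Per1 differ most from 1 or 2 of the groups.

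Outside the clock, Spon2 and Cdkn1a gave the widest gaps. Spon2 encodes a secreted matrix protein of the F-spondin family. Its signals were 10.54, 11.25, 10.91 and 10.64 in sham C57.YA, and 8.31 to 9.28 (median 8.68) in the others. Even the lowest sham C57.YA heart was 1.27 above the highest of the rest, and the difference was 2.11 ± 0.15 (4.33-fold; adjusted p = 3.29e-08). Cdkn1a encodes p21, an inhibitor of cyclin-dependent kinases and a target of p53. It read 10.37, 10.79, 10.48 and 11.11, against 7.93 to 9.14 (median 8.63). The groups were separated by 1.23, with a difference of 2.07 ± 0.15 (4.20-fold; adjusted p = 3.13e-08), and 2 dimmer Cdkn1a probes gave 1.81 and 1.46. None of Arntl, Spon2, Cdkn1a and Dbp lost its call or direction without either sham C57.YA pair.

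**Figure D3:**
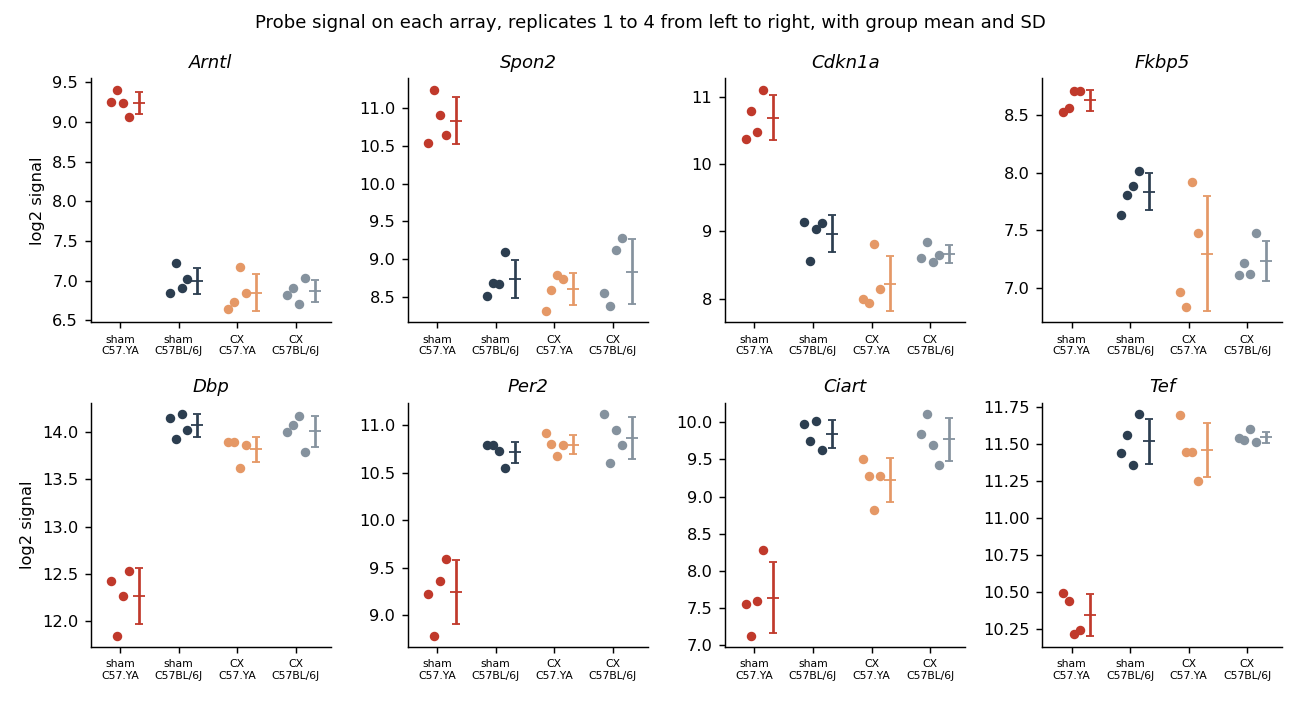
Log2 signal (vertical axis) of 8 genes on each array, by group; points are hearts, and the bar beside them is the group mean with its SD over 4 hearts. The sham C57.YA hearts lie above all other hearts for Arntl, Spon2, Cdkn1a and Fkbp5, and below all others for Dbp, Per2, Ciart and Tef.

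The list of p21 and p53 targets held 13 tested genes, among them other cell cycle genes such as Ccnd1. By the brightest probe of each gene, Cdkn1a was the single one called higher in the main contrast and 3 were lower, with a median of -0.11. Over all tested genes, 8.27% were higher and 8.96% lower in that contrast. Gadd45g was higher against sham C57BL/6J (0.51, adjusted p = 0.0128) but lower against CX C57BL/6J (-0.31, adjusted p = 0.0448). A second, much dimmer Gadd45g probe was called in neither (adjusted p = 0.109 and 0.14). Ccng1 was higher against CX C57BL/6J (0.15, adjusted p = 0.0899). In that comparison 2 of the 13 genes were higher and 5 lower, beside 13.35% and 13.81% of all tested genes. Gadd45a, a stress-induced gene of growth arrest, gave 9.68, 9.83, 9.78 and 9.74, below the 10.15 to 10.90 (median 10.76) of the others. It was 1.82-fold lower (-0.86 ± 0.06, adjusted p = 2e-08), and its second probe gave -0.73. Plk2, a polo-like kinase, was lower by 0.44 ± 0.07 (adjusted p = 0.000299), without overlap, and Sesn1, a sestrin, by 0.31. Mdm2 and Ccng1, direct targets of p53, were not called in the main contrast by their brightest probes (0.08 and 0.04). The Ccng1 probes disagreed. A dimmer Ccng1 probe was called higher in the main contrast (0.16, adjusted p = 0.0871) and against CX C57BL/6J (0.32, adjusted p = 0.0052). The dimmest Ccng1 probe was not called in the main contrast (0.09, adjusted p = 0.475), but was higher against CX C57.YA (0.24, adjusted p = 0.0997). A dimmer Mdm2 probe was not called in the main contrast (0.10, adjusted p = 0.283).

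Genes known to be induced by glucocorticoids included 5 of 14 tested that were higher and 0 lower in the main contrast, with a median of 0.24, beside 8.27% of all tested genes higher. Against CX C57.YA, 4 were higher and 3 lower (Tsc22d3 by 0.29, Klf9 by 0.30 and Glul by 0.49), with a median of 0.09. In that comparison 10.44% of all tested genes were higher and 10.02% lower. Fkbp5, a co-chaperone of the glucocorticoid receptor, read 8.53, 8.57, 8.71 and 8.71, against 6.83 to 8.02 (median 7.48). All 4 were above the other hearts, by 1.17 ± 0.14 (2.26-fold; adjusted p = 1.22e-05), although in CX C57.YA only 2 of 4 arrays detected it. Errfi1, an inhibitor of the epidermal growth factor receptor, was the most uniform, at 10.91, 10.96, 10.87 and 10.91 against 9.94 to 10.33. It differed by 0.80 ± 0.07 (1.74-fold; adjusted p = 1.01e-06). Ddit4, an inhibitor of mTOR signalling, gave 10.11, 10.28, 11.01 and 11.41. Replicate 1 lay within the range of the other hearts (8.80 to 10.20) and replicate 2 just above it, and the difference of 1.03 ± 0.19 (adjusted p = 0.00159) was 0.52 without replicates 3 and 4 (adjusted p = 0.1107) and 1.54 without replicates 1 and 2. Sgk1 was likewise higher by 0.38 (adjusted p = 0.0941) through replicates 3 and 4, with 0.03 without them. The remaining called member was Mt1, a metallothionein (0.29, adjusted p = 0.085). Klf9, Tsc22d3, Pdk4 and Dusp1, known targets of the same receptor, were not called in the main contrast (-0.12, -0.11, 0.27 and 0.10).

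The other genes among the 15 most raised were of varied function. Slc41a3, a carrier of the family of magnesium transporters, read 11.17, 11.44, 11.38 and 11.58 against 9.60 to 10.75, and was 2.35-fold higher (1.23 ± 0.10, adjusted p = 2.14e-07). All 3 of its probes rose, by 1.07 to 1.23. Tnfrsf12a, the receptor of TWEAK, was higher by 0.92 ± 0.13, but its lowest value (11.04) lay under the highest of the others (11.15). Gfpt2, an enzyme of hexosamine synthesis, rose by 0.86, and Timp4, a metalloproteinase inhibitor abundant in heart, by 0.74, both with overlap. Timp4 gave 0.57 without replicates 3 and 4 (adjusted p = 0.1518). Depp1, a target of FOXO factors, was 0.81 higher with the 4 hearts just above the rest, by 0.04. Rbp7, a retinol-binding protein of endothelium, Gngt2, a G-protein gamma subunit, Abra, an actin-binding protein of striated muscle, and Sphk2, a sphingosine kinase, rose by 0.75, 0.70, 0.69 and 0.64. Each of these 4 had all sham C57.YA values above the other 12, by 0.12 to 0.44. A second, dimmer Gngt2 probe gave 0.30 and overlapped the other hearts.

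The genes most reduced, clock members aside, were likewise mixed. Nrep read 11.31, 11.04, 10.88 and 10.71, below the others at 11.41 to 12.32, a difference of -0.92 ± 0.09 (adjusted p = 1.01e-06). It was lower by 0.53 against sham C57BL/6J and by 1.03 against CX C57.YA. Slc25a33, a mitochondrial pyrimidine nucleotide carrier, fell by 0.87 ± 0.08, and Coq10b, a coenzyme Q-binding protein of mitochondria, by 0.83 ± 0.07, both without overlap. A second Coq10b probe gave -0.84 but overlapped the other hearts, with -0.44 against CX C57.YA. Fgfbp3, which binds fibroblast growth factors, was 0.87 lower. Mid1ip1, an activator of acetyl-CoA carboxylase and so of lipid synthesis, fell by 0.78, Slc46a3, a lysosomal carrier, by 0.80 and Gsta3, a glutathione transferase, by 0.75. For each of these 3 the 4 hearts were below all others. In Gsta3 the second, dim probe gave -0.25 and overlapped the other hearts.

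**Figure D4:**
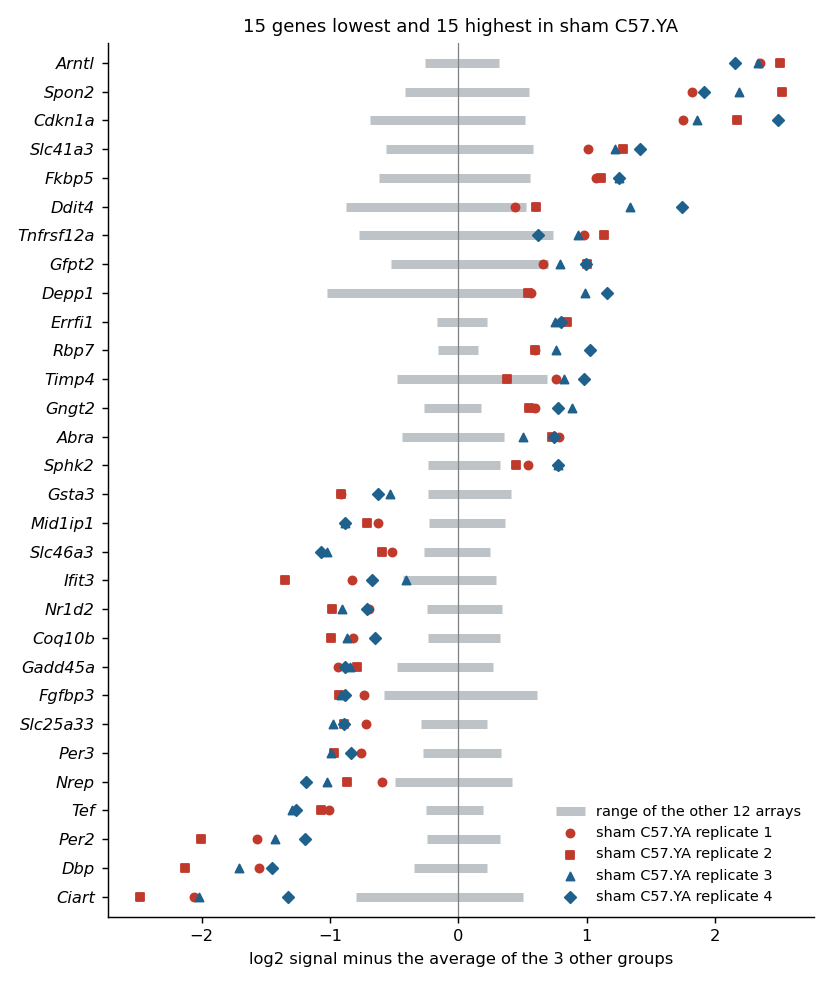
Log2 signal minus the average of the 3 other group means (horizontal axis) for the 15 genes most raised and the 15 most reduced in sham C57.YA among those differing from each group. Symbols are the 4 sham C57.YA hearts, red for replicates 1 and 2 and blue for 3 and 4, and grey bars the range of the other 12 hearts; Ddit4, Tnfrsf12a, Gfpt2, Timp4 and Ifit3 overlap the bars and the rest do not.

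Genes of hypertrophy and stretch were divided. In the main contrast 5 of 9 tested were higher and 1 lower, with a median of 0.28, but against sham C57BL/6J alone 2 were higher and 2 lower. Over all tested genes, 8.27% were higher and 8.96% lower in the main contrast, and 1.93% and 2.63% against sham C57BL/6J. Nppb, the B-type natriuretic peptide, was higher by 0.90 ± 0.15 (adjusted p = 0.000539), but differed from sham C57BL/6J by 0.46 (adjusted p = 0.21) and from CX C57.YA by 1.29. Nppa, the atrial natriuretic peptide, was 0.37 higher in the main contrast, -0.04 against sham C57BL/6J and 0.21 higher without replicates 3 and 4 (adjusted p = 0.2624), and was not called with the other 12 arrays as 1 group (adjusted p = 0.297). Rcan1, a feedback inhibitor of calcineurin, was higher against each group (0.51 ± 0.07), and a dimmer probe gave 1.27. Ankrd1, a stretch-responsive sarcomeric protein, went the other way. It read 14.69, 14.55, 14.60 and 14.01, just under the 14.75 to 15.27 of the other hearts, a difference of -0.56 ± 0.10 (adjusted p = 0.00138), and a second probe gave -0.99 with a gap of 0.42.

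Of 15 tested interferon-stimulated genes, 7 were lower and 0 higher in the main contrast, with a median of -0.26. Pairwise, 1 was lower against sham C57BL/6J (median 0.01), 11 against CX C57.YA and 9 against CX C57BL/6J, where 1 was higher. Of all tested genes, 2.63%, 10.02% and 13.81% were lower in these 3 contrasts, and 8.96% in the main contrast. Ifit3 was lower against all 3 groups, by 0.48, 1.04 and 0.91, with values of 9.09, 8.57, 9.51 and 9.24 that overlapped the others (9.48 to 10.21). Cxcl9, a chemokine induced by interferon gamma, was lower by 0.81 ± 0.11 in the main contrast and by 0.41 against sham C57BL/6J (adjusted p = 0.11). The mean of the 15 genes was 9.13 ± 0.13 (SD, n = 4) in sham C57.YA, 9.19 ± 0.11 in sham C57BL/6J, 9.62 ± 0.08 in CX C57.YA and 9.47 ± 0.10 in CX C57BL/6J.

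**Figure D5:**
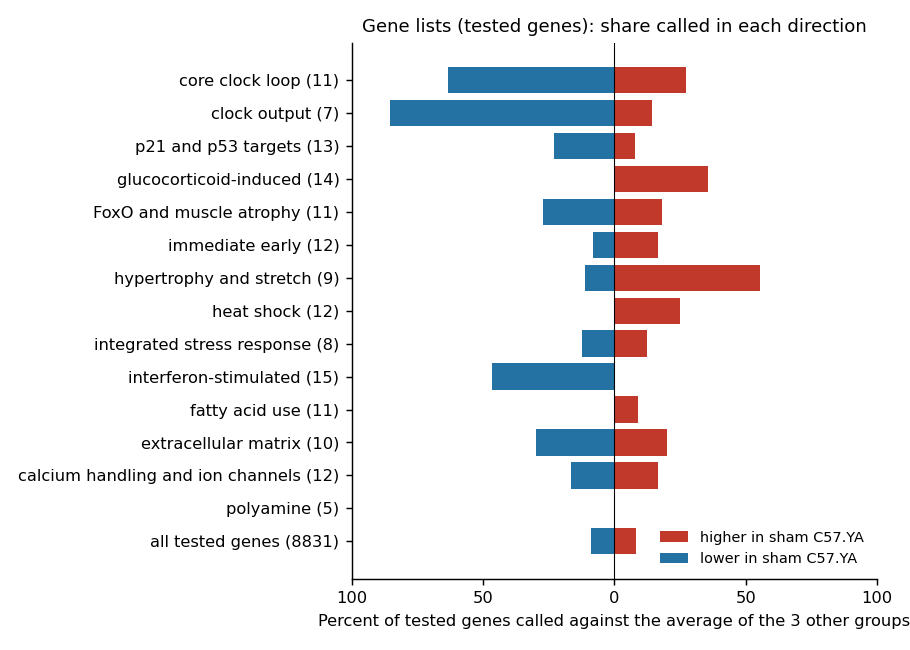
Percent of the tested genes of each list (number tested in parentheses) called higher (right) or lower (left) in sham C57.YA against the average of the 3 other groups; the bottom bar is all 8831 tested genes. The 2 clock lists have the highest shares called, 10 of 11 and 7 of 7 genes.

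The genes differing from each group were spread over the chromosomes. They made up 1.97% of all tested genes and 5.19% of those of chromosome 19 (16 of 308), while chromosome X had 1 of 280. Of the 4 tested genes of the Y chromosome, which is the chromosome that distinguishes C57.YA from C57BL/6J, 0 differed from each group. Uty, Eif2s3y and Kdm5d differed from the 3 other groups by 0.05, -0.07 and -0.08 (adjusted p from 0.54 to 0.69). Ddx3y, another Y-linked gene, was not among the tested genes. Such probes were designed on the reference sequence, and A/J differences under a probe were not examined.

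Cell type markers were compared as well, beside 8.27% of all tested genes higher and 8.96% lower in the main contrast. Of 6 tested markers of ventricular cardiomyocytes, 0 were called, with differences of -0.02 to 0.14, and with mean signals of 13.84 to 15.88 in sham C57.YA. All 4 tested atrial muscle markers were lower in the main contrast, and this rested on the CX C57BL/6J hearts. The mean signal of those 4 markers ran from 6.99 to 7.19 in sham C57.YA, 7.03 to 7.11 in sham C57BL/6J and 7.09 to 7.65 in CX C57.YA, and from 9.23 to 11.16 in CX C57BL/6J. Without the CX C57BL/6J hearts the main contrast called 1225 probes, and 300 differed from both remaining groups, including 224 of the 236. Arntl, Spon2, Cdkn1a and Dbp were then at 2.32, 2.17, 2.09 and -1.69. The 236 had already been called against both remaining groups, so most of them were kept by construction. Of 3 smooth muscle markers 2 were higher (Myh11 by 0.59 and Tagln by 0.40), of 4 endothelial markers 1 (Pecam1 by 0.23) and of 2 mesothelial markers 1 (Upk3b by 0.77). Against sham C57BL/6J none of these markers was called by its brightest probe, though a second Pecam1 probe was (0.37, adjusted p = 0.0157), and their part in the results was not tested.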

How the data were processed

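Left ventricular RNA of 16 mice was hybridized with 1 mouse per array. Per the file headers and the study's methods, the deposited probe intensity is the mean bead signal from BeadStudio, not normalized by the authors, with a deposited detection p-value that sets the probe against negative controls. A second table by the authors holds quantile-normalized log2 values; its probe names did not pair with the signal table (correlation by name -0.00114 to 0.00138), but its values did, with a largest difference of 5.43e-06. The 32 value columns that match no sample here were not used. Signals were log2-transformed and quantile-normalized over 16 arrays. Probes with detection p at most 0.04 on at least 2 arrays of any group were kept, 12764 of 25697, of which 12041 had a gene name (8831 genes). Of all 25697 probes, 23978 were named from the platform annotation, 23962 of them through current gene identifiers, and 1719 had no name. A gene was represented by its brightest tested probe.

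One mean per group was fitted with limma 3.58.1 in R 4.3.3 over all 16 arrays, with moderated variances and Benjamini-Hochberg adjustment. The fit was tested on simulated data with known changes. The simulated noise was independent between arrays, so it did not include the split within sham C57.YA. The permutation test of the study's methods was not run. The number of arrays limits the precision. Genes named were the 15 highest and 15 lowest of those called in the main and all pairwise contrasts, 4 markers (Arntl, Dbp, Cdkn1a, Spon2), the 10 with the widest gap to the other arrays, members of the lists, and genes whose probes disagreed. Members and lists were chosen with earlier results of these data known. Arrays lay on 2 BeadChips, but the sources used here do not give which array was on which, so chip could not be a block. Same-numbered replicates did not deviate together in every pair, so they were not treated as paired. Alternatives covered background correction, scaling, filters, thresholds, variance, weights, blocks and arrays left out. Promoters came from RefSeq (GRCm38.p6).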

Additional observations from a re-analysis of the deposited data

Results flagged for a closer look

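Of 240 sets of 4 values (60 named genes in 4 groups), 10 held 1 array far from the other 3, with a gap to its neighbour that took most of the range; chance alone gives about 1 in 20 such sets. In sham C57.YA these were Ier3, an early response gene, where replicate 4 was lowest (11.59 against 11.81; gap over range 0.909), and Nr1d1, where replicate 2 was lowest (9.58 against 9.82; 0.863). In CX C57.YA, replicate 3 was lowest for Dbp (13.62 against 13.87; 0.907) and highest for Acot1, an acyl-CoA thioesterase (11.90 against 11.43; 0.855), and replicate 1 was lowest for Abra (10.30 against 10.68; 0.93). In sham C57BL/6J, replicate 2 was lowest for Cdkn1a (8.56 against 9.04; 0.837), and replicate 4 was lowest for Lum, a matrix proteoglycan (10.59 against 10.81; 0.862), and highest for Slc41a3 (10.75 against 10.43; 0.838). In CX C57BL/6J, replicate 4 was lowest for Sesn1 (12.26 against 12.53; 0.833) and replicate 3 for Txnip, an inhibitor of thioredoxin (12.32 against 12.97; 0.849). With these arrays included, the sham C57.YA values of Dbp, Cdkn1a, Slc41a3 and Abra did not overlap those of the other 12 hearts.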

How the results depend on the processing

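In 990 combinations of the 30 leading genes with 33 alternatives, the call and direction held in 986. Ddit4, Depp1 and Timp4 lost their call in the other 4. The 30 genes were chosen from these data for large, called differences, so most calls were bound to hold. Of the alternatives, 16 left out a single array, and the authors' log2 table differed from the main values by 5.43e-06 at most. Among all 168 named genes, 28 lost a call at least once and 1, Hspa1a, reversed, to -0.06393 without sham C57.YA replicates 1 and 2 and to -0.1285 within replicates 3 and 4 of every group. Median scaling left 17.2% of the main calls higher, in place of 49.8%, and moved the median of all probes from -0.00287 to -0.0724; it called 365 probes against sham C57BL/6J and left 205 outside the range. At an adjusted p under 0.05, 1352 probes were called in the main contrast, 305 against sham C57BL/6J and 154 against each group, and an adaptive false discovery rate called 830 against sham C57BL/6J. With the other 12 arrays as 1 group, 943 were called in the main contrast. Within replicates 1 and 2 of every group, 1037 (main), 167 (sham C57BL/6J), 1272 (CX C57BL/6J) and 117 (each group) were called and 2013 lay outside the range; within replicates 3 and 4, 855 (sham C57BL/6J), 537 (CX C57.YA), 134 (each group) and 2262 (outside). Without sham C57.YA replicates 1 and 2 the counts were 2042 (sham C57BL/6J), 1510 (CX C57.YA), 484 (each group) and 1475 (outside), and without replicates 3 and 4 they were 1129 (main), 179 (sham C57BL/6J), 1481 (CX C57BL/6J), 124 (each group) and 856 (outside); fewer arrays widen what lies outside a range by construction. Without the CX C57BL/6J arrays, 1225 were called in the main contrast. Leaving out 1 array at a time gave 1344 (without sham C57.YA replicate 3) to 2129 for the main contrast, where leaving out sham C57.YA replicate 4 gave 1373, 275 (without sham C57BL/6J replicate 2) to 880 (without sham C57.YA replicate 1) against sham C57BL/6J (346, 340, 276 and 305 without sham C57BL/6J replicates 1 and 3 and sham C57.YA replicates 3 and 4), 1834 to 2671 against CX C57.YA, 2430 to 3540 against CX C57BL/6J, 148 (without sham C57BL/6J replicate 2) to 278 against each group, and 323 to 497 (without sham C57.YA replicate 1) outside the range. The cause of these shifts was not tested.

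With the replicate number as a block, the main contrast called 2288 probes, the pairwise contrasts 694, 2705 and 3589, and 273 differed from each group; same-numbered arrays correlated at -0.0856 to 0.204 in their deviations and 7 of 16 correlated best with their own number, so the number was not taken to pair the mice. The block with 2 levels, replicates 1 and 2 against 3 and 4, called 2387. A BeadChip block was not run.

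With 4 hearts per group and a split within sham C57.YA, small differences were imprecise, and probes not detected on a whole group of arrays gave only bounds.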

Other observations

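Some lists outside the report held members that differed from each of the 3 groups. Of 12 tested immediate early genes 2 were higher and 1 lower in the main contrast, but 6 were higher against sham C57BL/6J. Over all tested genes, 8.27% were higher and 8.96% lower in the main contrast, and 1.93% were higher against sham C57BL/6J. Klf4, a zinc finger factor, was raised against every group by its brightest probe (0.62 ± 0.09, adjusted p = 0.000225), although 2 dimmer probes were not called against CX C57.YA (0.24 and 0.23), whereas Ier3 was reduced (-0.64 ± 0.08, adjusted p = 4.62e-05), and Fos and Egr1 were not called (0.29 and -0.05). Of 12 heat shock genes 3 were higher, and among them Hspa1a read 8.72 and 8.45 in replicates 1 and 2 and 7.65 and 7.21 in replicates 3 and 4. Of 8 genes of the integrated stress response 1 was higher and 1 lower, the latter being Chac1, an enzyme that degrades glutathione (-0.72 ± 0.13). Acot1 alone was called in the main contrast among 11 genes of fatty acid use (0.62 ± 0.09, adjusted p = 0.000121), with values of 12.19 to 12.35 in sham C57.YA against 11.35 to 12.08 in the others.

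Among 11 genes of FoxO targets and muscle atrophy, 2 were higher and 3 lower. For this and the following lists, the shares of all tested genes were again 8.27% higher and 8.96% lower. Besides Depp1, Fbxo30, a ubiquitin ligase adaptor, was higher by 0.41 ± 0.08, and Eif4ebp1, a repressor of translation, was lower by 0.44 ± 0.06, both against each group. Of 10 matrix genes, 2 were higher and 3 lower. Timp3, an inhibitor of metalloproteinases, was lower against each group by its brightest probe (-0.45 ± 0.06), although a second probe was not called against sham C57BL/6J (-0.27, adjusted p = 0.25), while Timp1 was higher by 0.64 but by 0.16 against sham C57BL/6J (adjusted p = 0.66). Lum was lower by 0.79 ± 0.08, but differed from sham C57BL/6J by -0.29 (adjusted p = 0.12). Of 12 genes of calcium handling and ion channels, 2 were higher and 2 lower, and of 5 polyamine genes and the single tested steroid receptor gene, Nr3c1, 0 were called by limma in the main contrast.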
